A study of Mus musculus with 24 samples.

Results

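The interleukin-1 family and inflammasome genes described here were Il1a, Il1b, Il1rn, Il18, Casp1 and Nlrp3. They were taken by symbol from the deposited expression tables and make up 6 of the 17017 genes listed. All 6 passed the filter on low values, and none was chosen by a threshold on its level or change. The libraries were of primary alveolar macrophages, the resident phagocytes of the air spaces, from wild-type BALB/cJ mice. RNA was taken 20 h after stimulation. The cells stayed untreated or were given 1 recombinant cytokine (IL-33, IL-13 or IL-17A), or IL-33+IL-17A, IL-13+IL-17A, IL-33+IL-13 or IL-33+IL-13+IL-17A, which made 8 groups of 3 libraries. The wild-type genotype, strain and 20 h time point were shared by all groups, so no other genotype or time enters any comparison. The series as a whole concerns lung fibroblasts that answer these cytokines and act on macrophages, whereas here the cytokines were given to the macrophages. No dose is given in the labels. Nor do they tell whether libraries of 1 group are from different mice or wells, and the spread behind each p-value may therefore be technical.

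IL-1 alpha and IL-1 beta are agonists of the same receptor, and the IL-1 receptor antagonist encoded by Il1rn occupies that receptor without signalling. IL-1 beta and IL-18 are made as precursors that caspase-1 cleaves after an inflammasome has assembled, and NLRP3 is a sensor that nucleates such a complex, while IL-1 alpha is active without that cleavage. In resting macrophages Il1b and Nlrp3 transcripts are usually scarce and are raised by a priming signal through NF-kB, so transcript level, cleavage and release are separate steps, of which only the first was measured here.

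All 24 libraries held 9.13 to 12.9 M reads recovered from the deposited values (median 10.6 M). Levels are in TPM (transcripts per M transcripts), which the authors computed per base of the whole gene, introns included. TPM is therefore compared only between libraries, for 1 gene or for the sum of 1 marker list. Of 16 alveolar macrophage markers, all 16 were listed, with a summed level of 13757 to 22598 TPM, although Marco stayed at 0.149 to 0.799 TPM and Car4 at 0 to 2.72 TPM. On principal components, 26.4% of the variance lay along an axis that split IL-13 libraries from all others, 12 on each side. A further 8.89% lay along a second axis at whose end stood 3 libraries, namely replicate 1 of untreated cells, replicate 2 of IL-17A and replicate 2 of the triple combination. Another 4 libraries (IL-33 replicate 3, IL-33+IL-17A replicates 2 and 3 and replicate 3 of the triple combination) carry title numbers above 24, and the labels do not say what that marks. Calls of the 6 genes that changed without either set of libraries are named beside the results.

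On mm10 the agonist genes Il1a (ENSMUSG00000027399, chr2:129299610-129309972, minus strand) and Il1b (ENSMUSG00000027398, chr2:129364570-129371139, minus strand) are neighbours with 54597 bases between them. Il1rn (ENSMUSG00000026981, chr2:24336853-24351494, plus strand) lies on the same chromosome 104.9 Mb away. Il18 (ENSMUSG00000039217, chr9:50554827-50581840) and Casp1 (ENSMUSG00000025888, chr9:5298508-5307290) are both on the plus strand of chromosome 9, and Nlrp3 (ENSMUSG00000032691, chr11:59541568-59566956) is on the plus strand of chromosome 11. Strand handling in the counting is not given in the sources used here, so reads of overlapping genes cannot be told apart. Gm14023, which overlaps Il1a, reached 1.46 TPM at most, and Bco2, which overlaps Il18, reached 0.452 TPM. Il1bos, which overlaps Il1b, and Tex12, which overlaps Il18, were not found among the genes listed, so their levels are not known.

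The start-site windows of the 4 ligand and antagonist genes are shown because their transcripts moved in different directions with IL-13, with Il1rn given by the last of its 3 annotated starts. Each runs from 250 bases before the RefSeq start site to 50 bases into the transcript on GRCm38.p6, printed 5′ to 3′ on the gene's own strand. They are chr2:129309923-129310222 (minus strand) for Il1a, chr2:129371090-129371389 (minus) for Il1b, chr2:24345121-24345420 (plus) for Il1rn and chr9:50554450-50554749 (plus) for Il18. Capitals mark matches on either strand to any of 8 motifs searched.
Il1a: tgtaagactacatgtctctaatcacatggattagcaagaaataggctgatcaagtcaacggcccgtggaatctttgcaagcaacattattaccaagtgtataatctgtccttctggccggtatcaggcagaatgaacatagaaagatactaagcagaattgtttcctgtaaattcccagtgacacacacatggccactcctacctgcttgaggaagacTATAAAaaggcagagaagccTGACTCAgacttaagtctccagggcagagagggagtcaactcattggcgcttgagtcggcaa
Il1b: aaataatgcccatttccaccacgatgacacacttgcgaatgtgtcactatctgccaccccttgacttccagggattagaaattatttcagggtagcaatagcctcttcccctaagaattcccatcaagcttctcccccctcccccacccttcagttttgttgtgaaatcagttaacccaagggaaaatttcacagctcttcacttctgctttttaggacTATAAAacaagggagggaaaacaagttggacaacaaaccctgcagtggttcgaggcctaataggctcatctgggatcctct
Il1rn: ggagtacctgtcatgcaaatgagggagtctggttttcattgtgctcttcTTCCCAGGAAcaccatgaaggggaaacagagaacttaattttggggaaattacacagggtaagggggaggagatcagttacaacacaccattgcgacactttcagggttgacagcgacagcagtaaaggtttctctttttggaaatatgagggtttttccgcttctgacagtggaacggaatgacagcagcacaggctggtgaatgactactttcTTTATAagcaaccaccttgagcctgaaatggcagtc
Il18: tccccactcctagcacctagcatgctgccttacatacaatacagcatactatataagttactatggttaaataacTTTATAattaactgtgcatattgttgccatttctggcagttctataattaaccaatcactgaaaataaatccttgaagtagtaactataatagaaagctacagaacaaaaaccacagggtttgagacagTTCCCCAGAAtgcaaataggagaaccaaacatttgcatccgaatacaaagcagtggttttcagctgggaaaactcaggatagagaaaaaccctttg
The motifs were TTCNNNNGAA (STAT6), TTCNNNGAA (other STAT proteins), TGANTCA (AP-1), TTGCNNAA (C/EBP), GAAANNGAAA (IRF), GAGGAAGT (PU.1), TATAAA (the TATA box) and the NF-kB site, and no 2 marked matches overlap.

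RefSeq gave 9 such windows for the 6 genes, 1 each for Il1a, Il1b, Il18 and Casp1, 2 for Nlrp3 and 3 for Il1rn. The 2 neighbouring agonist genes both had a TATAAA close to the start, at positions -32 to -27 in Il1a and -31 to -26 in Il1b, where -1 is the base before the start site. The printed Il1rn and Il18 windows held it on the other strand, as TTTATA, at 15 to 20 and at -175 to -170. TATAAA was found on either strand in 13.6% of the 32534 windows of all genes. The STAT6 pattern, found in 6.98% of all windows, was present in Il1rn as TTCCCAGGAA, in Il18 as TTCCCCAGAA at -46 to -37 and in the second Nlrp3 window as TTCCTTTGAA. It was present neither in Il1a nor in Il1b, so in these windows it occurred with transcripts that rose and with transcripts that fell. TGANTCA (7.79% of windows) was found in Il1a and in the first Il1rn window, the NF-kB pattern (4.53%) in the first Nlrp3 window, and none of the 8 in Casp1. A match describes letters in the window and does not show that a factor binds there.

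IL-13 moved the family in both directions and was the 1 cytokine with called members when given alone. Added to untreated cells, it raised Il1b, Il1a and Il1rn and lowered Il18 and Nlrp3, while Casp1 did not pass the test, so that 5 of the 6 genes were called where 29.8% of the 13215 tested genes were. A gene was called at a limma adjusted p under 0.05. The 12 libraries with IL-13 and the 12 without it did not overlap for Il1a, Il1b, Il18 or Nlrp3. How many of all tested genes separate in the same way was not counted. The same holds wherever single libraries of groups are set against each other below, so overlap or its absence describes values and is no test. The same 5 were called when IL-13 was added to IL-17A (29.8% of all genes), and the same without Il1rn, thus 4 of 6, when it was added to IL-33 (23.9%) or to IL-33+IL-17A (32.7%).

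**Figure D1:**
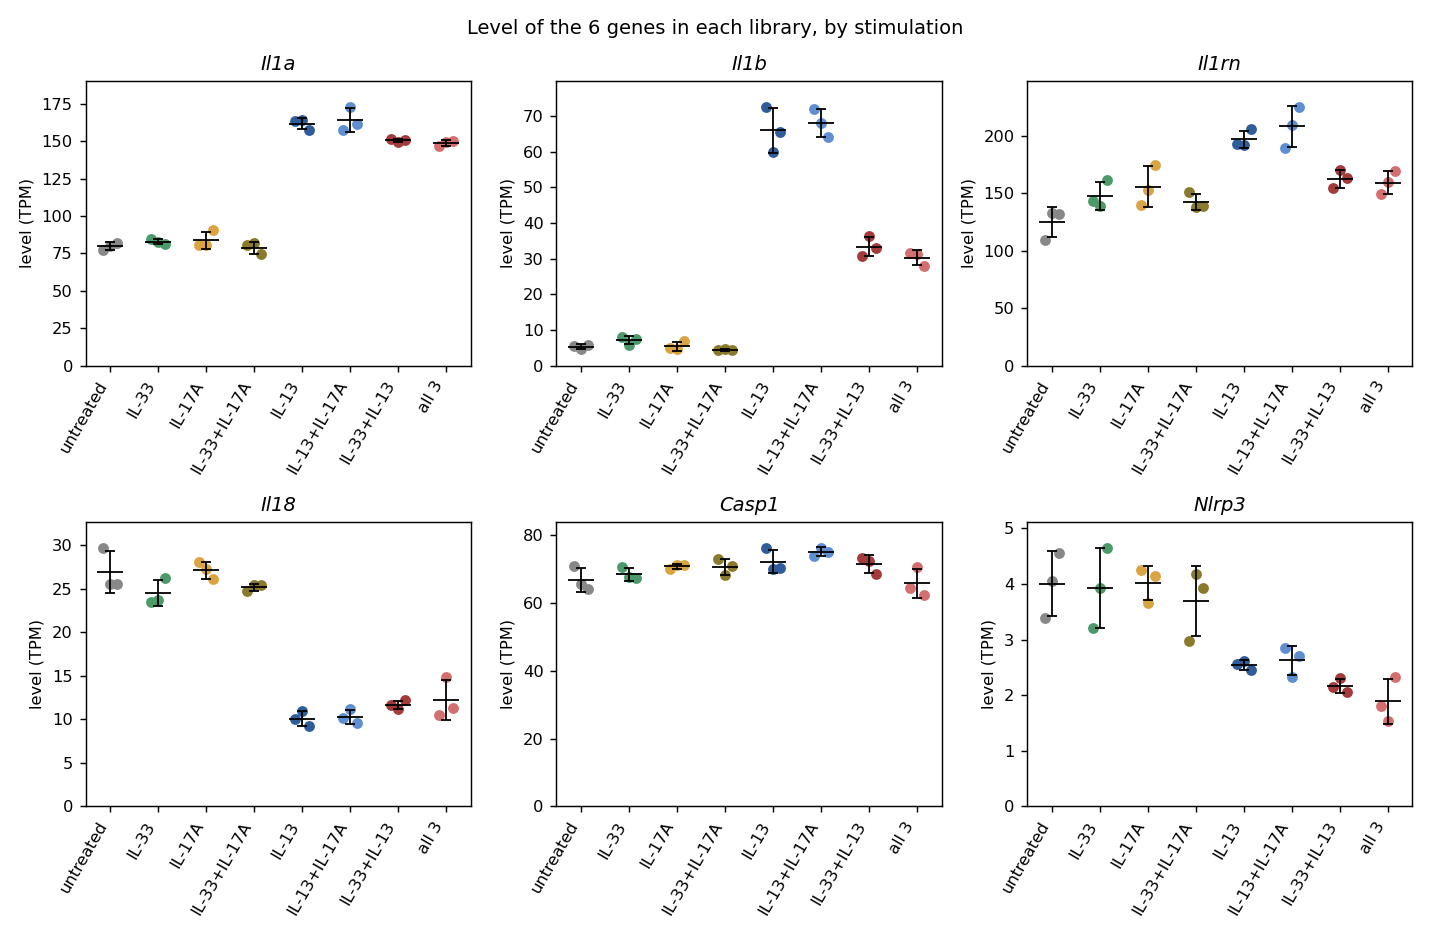
Level in TPM of the 6 genes in each of the 24 libraries (points), by stimulation, with the mean and SD of 3 libraries (black), each panel with its own linear axis from 0; all 3 is IL-33+IL-13+IL-17A. Il1a and Il1b are high, and Il18 and Nlrp3 low, in every group with IL-13, and Il1b in the 2 groups that also had IL-33 lies between the other IL-13 groups and those without IL-13.

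Il1b, the inducible agonist, had the largest change of the 6. It was at 5.60, 4.59 and 5.83 TPM in untreated cells and at 72.6, 59.9 and 65.6 TPM with IL-13. Every IL-13 library thus lay far above every untreated one, a 12.4-fold ratio of the means and a difference of 3.40 ± 0.12 (SE) on the log2(TPM + 1) scale (limma, adjusted p = 8.86e-14), and Il1b ranked 12th among increases of the 13215 genes. The untreated values stood for 31 to 38 reads and the IL-13 values for 423 to 536. IL-17A alone left Il1b at 4.86, 4.56 and 6.81 TPM, and IL-13 together with IL-17A brought it to 72.0, 68.1 and 64.3 TPM, a rise of 3.45 ± 0.12 over IL-17A (limma, adjusted p = 7.89e-14). In these 2 settings, with and without IL-17A, IL-13 gave Il1b levels that overlapped each other.

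With IL-33 present the rise in Il1b was smaller. Cells given IL-33 alone had 8.10, 5.91 and 7.43 TPM, and those given IL-33+IL-13 had 30.9, 36.4 and 33.01 TPM, a rise of 2.09 ± 0.12 (limma, adjusted p = 1.36e-10). With IL-17A as well, the levels were 4.26, 4.78 and 4.31 TPM without IL-13 and 31.5, 31.3 and 27.9 TPM with it, a rise of 2.52 ± 0.12 (limma, adjusted p = 1.02e-11). All 6 libraries with both IL-33 and IL-13 lay between 27.9 and 36.4 TPM, and the 6 with IL-13 and no IL-33 between 59.9 and 72.6 TPM, so these sets did not overlap.

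Put as the effect of adding IL-33, mean Il1b fell from 66.0 ± 6.40 to 33.4 ± 2.76 TPM (SD, n = 3 each) in IL-13-treated cells, a log2 difference of -0.96 ± 0.12 (limma, adjusted p = 7.68e-05). It fell from 68.1 ± 3.84 to 30.2 ± 2.07 TPM in cells given IL-13+IL-17A, a difference of -1.15 ± 0.12 (limma, adjusted p = 1.15e-05). Only 2.57% of tested genes were called in the first of these comparisons and 3.55% in the second. Both calls held in every alternative run. In untreated cells the difference with IL-33 was 0.36 ± 0.12, from 5.34 ± 0.661 to 7.15 ± 1.12 TPM, and did not pass the test (limma, adjusted p = 1.0). The IL-33 libraries all lay above the untreated ones, in a comparison where 0 of all tested genes were called.

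The test of the difference between these effects, the interaction of IL-33 with IL-13, was -1.32 ± 0.17 for Il1b without IL-17A (limma, adjusted p = 2.05e-04) and -0.93 ± 0.17 with IL-17A (limma, adjusted p = 0.00702). The background was 1.17% of genes called for the first interaction and 1.51% for the second. The second call was lost on recovered reads with voom (-0.85, adjusted p = 0.0912) and without the 4 libraries numbered above 24 (-0.82, limma adjusted p = 0.218). The first held in all 20 alternatives.

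Il1a, the agonist that needs no cleavage, rose with IL-13 in each of the 4 settings. Untreated libraries had 77.5, 80.3 and 82.3 TPM and IL-13 libraries 164, 164 and 158 TPM, a 2.02-fold ratio of means and a log2 difference of 1.01 ± 0.05 (limma, adjusted p = 2.48e-12). Over all groups, the 12 libraries without IL-13 ran from 74.5 to 90.6 TPM (median 80.9) and the 12 with it from 147 to 173 TPM (median 155). The gap between these sets was wider than the range within either of them. The rises over IL-33, IL-17A and IL-33+IL-17A were 0.86, 0.96 and 0.91 on the log2 scale, each with SE 0.05, and all were called.

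The differences in Il1a when IL-33 was added did not pass the test. Mean Il1a was 162 ± 3.65 TPM with IL-13 and 151 ± 0.924 TPM with IL-33+IL-13 (SD, n = 3), a log2 difference of -0.10 ± 0.05 with a 95% interval of -0.20 to -0.01 (limma, adjusted p = 0.384). The corresponding values with IL-17A were 164 ± 7.87 and 149 ± 1.99 TPM, a difference of -0.14 ± 0.05 (adjusted p = 0.117, limma). In each case the libraries with IL-33 lay below all those without, and the IL-33 by IL-13 interaction for Il1a was -0.15 ± 0.06 without IL-17A (limma, adjusted p = 0.428) and -0.05 ± 0.06 with it (limma, adjusted p = 0.729). Whether the 2 agonists differed in their response to IL-33 was not tested against each other.

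**Figure D2:**
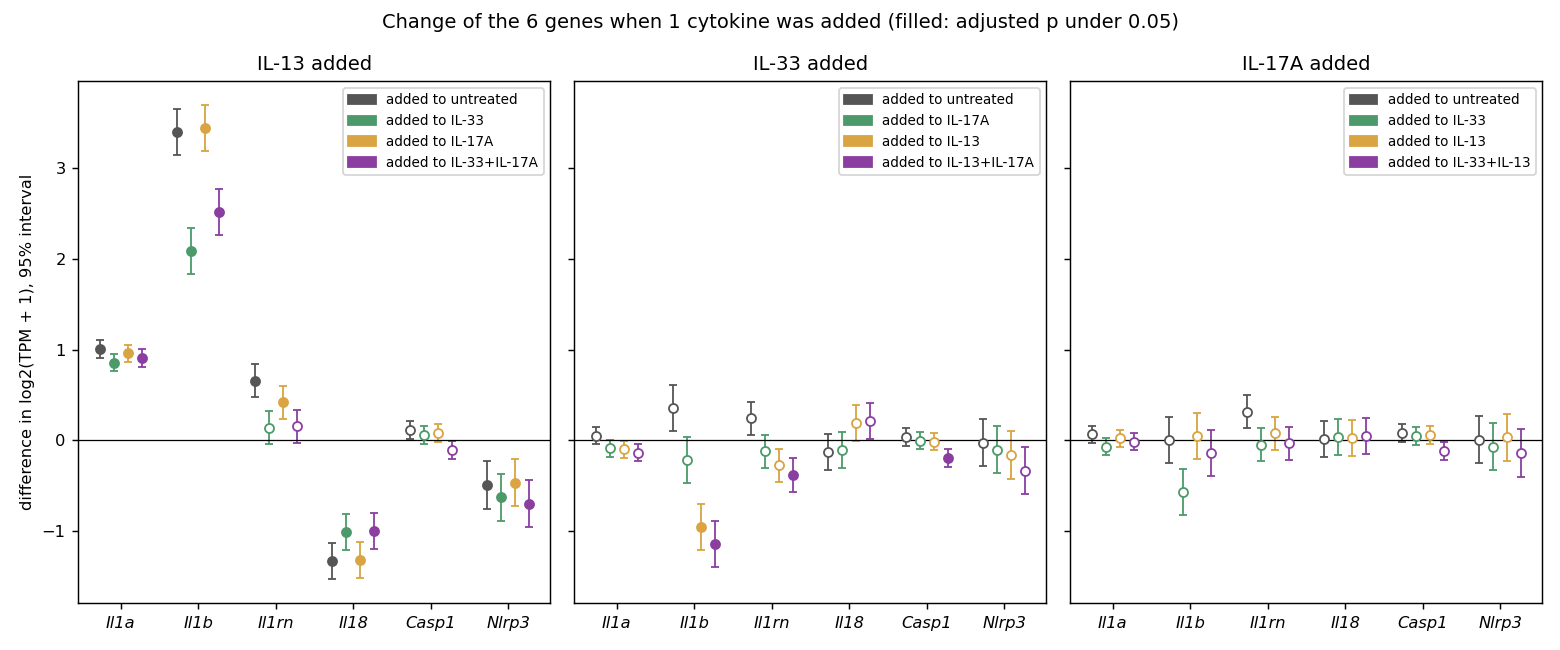
Difference in log2(TPM + 1) for each of the 6 genes when IL-13 (left), IL-33 (middle) or IL-17A (right) was added to the 4 conditions named in the keys, with 95% intervals from limma and filled points for an adjusted p under 0.05. With IL-13 the filled points of Il1b stand at 2.09 to 3.45 and those of Il18 at -1.33 to -1.001, and no point is filled in the right panel.

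Il18, the other caspase-1 substrate, went the opposite way from Il1a and Il1b. It stood at 29.7, 25.6 and 25.5 TPM in untreated cells and at 9.98, 11.002 and 9.23 TPM with IL-13, a log2 difference of -1.33 ± 0.09 (limma, adjusted p = 1.77e-09). The 12 libraries with IL-13 ran from 9.23 to 14.8 TPM and the 12 without from 23.5 to 29.7 TPM, with no overlap. The falls when IL-13 was added to IL-33, IL-17A and IL-33+IL-17A were -1.01, -1.32 and -1.001, each ± 0.09 and each called. The library with 14.8 TPM was replicate 2 of the triple combination, 1 of the 3 set apart on the second component. Without those 3 libraries the differences ran from -1.32 to -1.01 in these 4 comparisons. Il18 with IL-33+IL-13 was 11.6 ± 0.504 TPM against 10.1 ± 0.888 TPM with IL-13 alone, a difference of 0.19 ± 0.09 that did not pass the test (limma, adjusted p = 0.455).

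Il1rn, the receptor antagonist, rose less than the agonists and not in every setting. Untreated libraries had 110, 133 and 132 TPM and IL-13 libraries 193, 192 and 206 TPM, without overlap, a 1.58-fold ratio of means and a difference of 0.66 ± 0.09 (limma, adjusted p = 7.92e-06). Over IL-17A, where libraries had 140, 153 and 175 TPM, addition of IL-13 gave 189, 210 and 225 TPM, a rise of 0.42 ± 0.09 (limma, adjusted p = 9.69e-04). Over IL-33 (143, 139 and 161 TPM) it gave 155, 170 and 163 TPM, which overlap, with a difference of 0.14 ± 0.09 (limma, adjusted p = 0.289). Over IL-33+IL-17A (151, 139 and 139 TPM) it gave 149, 160 and 169 TPM, also overlapping, with 0.16 ± 0.09 (limma, adjusted p = 0.183). Here the scaling mattered, since this last difference was called with median-ratio scaling (0.27, limma adjusted p = 0.0243) and on recovered reads with voom (0.24, adjusted p = 0.0246).

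The interaction of IL-33 with IL-13 on Il1rn was -0.52 ± 0.12 without IL-17A and stood just inside the threshold (limma, adjusted p = 0.0449). It was lost in 10 of the 12 fits that left out 1 library, with adjusted p from 0.0526 to 0.121 (limma), and kept only without untreated replicate 2 or IL-33 replicate 2. It was also lost without either set of doubtful libraries (-0.43 without the 3 apart, -0.45 without the 4 numbered above 24). With IL-17A present the interaction was -0.26 ± 0.12 and not called (limma, adjusted p = 0.412). Adding IL-33 to IL-13 moved Il1rn from 197 ± 7.62 to 163 ± 7.87 TPM (SD, n = 3), a difference of -0.27 ± 0.09 that was not called (limma, adjusted p = 0.134). Added to IL-13+IL-17A it moved it from 208 ± 17.95 to 159 ± 9.98 TPM, a difference of -0.38 ± 0.09 (limma, adjusted p = 0.0163). That call was lost in 4 of 6 fits that left out 1 library, namely IL-13+IL-17A replicate 2 or 3 or replicate 1 or 2 of the triple combination, with adjusted p of 0.0515 to 0.0986 (limma).

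To set the genes against each other, recovered reads were divided by the length of their annotated exons and by the library's reads. The annotated length matters for this order. All exons of Il1rn come to 5535 bases, over several transcripts, but its longest coding transcript to 2474, whereas Il1a has 1974 by either measure. Over all exons, Il18 had the highest density of the 6 in untreated cells, at 69.0 ± 9.39 reads per exonic kb per M reads (SD, n = 3), followed by Il1a at 40.9 ± 0.791, Casp1 at 38.3 ± 3.77 and Il1rn at 32.1 ± 2.03. Nlrp3, at 2.43 ± 0.267, and Il1b, at 1.80 ± 0.255, were far below. With IL-13 the order became Il1a (82.1 ± 1.23), Il1rn (50.4 ± 2.36), Casp1 (41.0 ± 1.95), Il18 (25.5 ± 2.03), Il1b (21.99 ± 2.20) and Nlrp3 (1.54 ± 0.0398). Il18 and Il1b thus came close to each other after IL-13, with Il1b at 0.868 ± 0.133 of Il18, against 0.0261 ± 0.00346 in untreated cells. Over the longest coding transcript, an alternative chosen after seeing the data, Il1rn stood at 71.8 ± 4.54 in untreated cells and 113 ± 5.28 with IL-13, Il18 at 80.4 ± 10.9 and 29.7 ± 2.37, and Il1b at 2.52 ± 0.359 and 30.9 ± 3.09. Il1rn then came first with IL-13, ahead of Il1a, and Il1b stood slightly above Il18, so the order of these pairs is not settled by the annotation. How reads were counted is not given, so intronic reads may be among them. Such reads would raise the density of genes with much intron, such as Il18, which spans 27014 bases with 1031 exonic.

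Among the ligand and antagonist genes together, over all exons, Il18 took 47.8 ± 3.69% of the density in untreated cells and 14.2 ± 1.18% with IL-13. Il1b took 1.25 ± 0.147% and 12.2 ± 1.12%, and with IL-33+IL-13 it took 7.01 ± 0.506%. Il1a rose from 28.5 ± 1.16% to 45.6 ± 0.618% (these shares are a description and were not tested). Over the longest coding transcript the shares of Il18 were 41.0 ± 3.98% and 11.6 ± 1.08%, those of Il1b 1.29 ± 0.161% and 12.1 ± 1.102%, and those of Il1a 20.9 ± 0.490% and 32.2 ± 0.786%. The ratio of Il1b to its antagonist Il1rn was 0.0563 ± 0.0108 in untreated cells and 0.437 ± 0.0466 with IL-13, and 0.267 ± 0.00943 with IL-33+IL-13. In the triple combination it was 0.249 ± 0.0311, so the libraries with both cytokines lay between those with IL-13 alone and those without IL-13. Over the longest coding transcript that ratio was 0.0354 ± 0.00679, 0.275 ± 0.0293 and 0.168 ± 0.00593 in untreated, IL-13 and IL-33+IL-13 cells, the same order of groups. Whether Il1a or Il1rn was the more abundant depends on the length used, since Il1a was above Il1rn in 23 of 24 libraries over all exons and in 0 of 24 over the longest coding transcript.

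**Figure D3:**
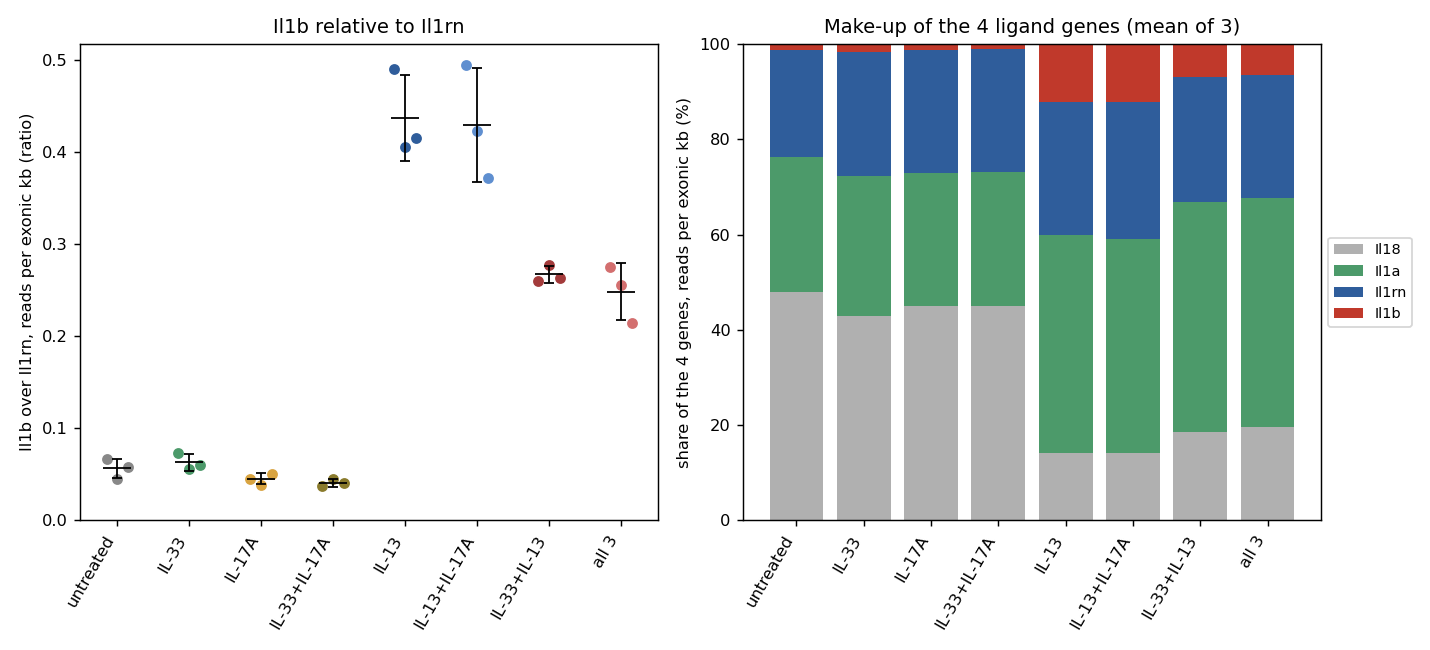
Left: ratio of Il1b to Il1rn in recovered reads per kb of all annotated exons for each library (points) with the mean and SD of 3 (black). Right: mean share of Il18, Il1a, Il1rn and Il1b in their summed reads per exonic kb, in percent, for each of the 8 groups (all 3 is IL-33+IL-13+IL-17A). The ratio is 0.0407 to 0.0630 in the 4 groups without IL-13 and 0.249 to 0.437 in those with it, and Il18 shrinks to 14.1% to 19.6% of the bar with IL-13.

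Nlrp3, the sensor, was scarce and fell with IL-13. Its untreated values were 3.39, 4.06 and 4.57 TPM and its values with IL-13 were 2.56, 2.62 and 2.45 TPM, a difference of -0.49 ± 0.12 (limma, adjusted p = 0.00477). The falls over IL-33, IL-17A and IL-33+IL-17A were -0.63, -0.47 and -0.70, each ± 0.12 and each called. The 12 libraries with IL-13 ran from 1.53 to 2.85 TPM and the 12 without from 2.98 to 4.65 TPM, so all with IL-13 were lower. These levels rest on 44 to 125 reads per library, fewer than for any other of the 6 genes except Il1b without IL-13. Adding IL-33 to IL-13+IL-17A gave 1.89 ± 0.407 against 2.63 ± 0.266 TPM (SD, n = 3), not called (-0.33 ± 0.12, limma, adjusted p = 0.185) except without the 4 libraries numbered above 24 (-0.44, limma, adjusted p = 0.0381).

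Casp1, the protease that cleaves both precursors, was the steadiest of the 6. Group means ran only from 65.8 ± 4.22 TPM in the triple combination to 75.2 ± 1.26 TPM with IL-13+IL-17A (SD, n = 3), and single libraries from 62.4 to 76.4 TPM. Every group overlapped its neighbour in the order of means, but groups further apart did not all overlap. IL-13+IL-17A libraries had 73.9 to 76.4 TPM, against 70.1 to 71.3 TPM with IL-17A and 62.4 to 70.5 TPM in the triple combination. With IL-13 added to untreated cells it went from 66.9 ± 3.54 to 72.3 ± 3.42 TPM, a difference of 0.11 ± 0.05 with a 95% interval of 0.01 to 0.21 (limma, adjusted p = 0.0917), which was called without untreated replicate 1 (0.15, limma, adjusted p = 0.0266) and without the 3 libraries apart, of which that is 1 (adjusted p = 0.00863, limma). With IL-13 added to IL-33+IL-17A the difference was -0.10 ± 0.05 and not called (limma, adjusted p = 0.099). It was called without replicate 2 of the triple combination (-0.15, limma, adjusted p = 0.018) and without the 3 libraries apart (limma, adjusted p = 0.00947), and turned to 0.0066 with median-ratio scaling. The 1 call for Casp1 was a difference of -0.19 ± 0.05 when IL-33 was added to IL-13+IL-17A (limma, adjusted p = 0.0274). It was lost in 5 of 6 fits that left out 1 library, all but that without replicate 2 of the triple combination, with median-ratio scaling (-0.13, limma, adjusted p = 0.438), on recovered reads with voom (-0.13, adjusted p = 0.372), when only the groups compared were fitted (limma, adjusted p = 0.371) and without the 4 libraries numbered above 24 (-0.15, limma, adjusted p = 0.117).

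Without IL-13, no difference with IL-33 or IL-17A passed the test for any of the 6 genes. IL-33 added to untreated cells or to IL-17A gave 0 called members, as did all 4 additions of IL-17A. Across all genes limma called 0 for IL-33 added to untreated cells (484 at an unadjusted p under 0.05, 0 by voom) and 1 for IL-33 added to IL-17A (0.00757%, 0 by voom). For IL-17A it called 0 in each of the 4 settings, 373 to 826 genes having an unadjusted p under 0.05, and voom also called 0. Of the 24 member differences with IL-17A the largest was for Il1b in IL-33-treated cells, 7.15 ± 1.12 TPM without and 4.45 ± 0.285 TPM with IL-17A, without overlap (-0.57 ± 0.12, unadjusted p = 1.62e-04 and adjusted p = 0.535 by limma). Il1rn was at 125 ± 13.1 TPM in untreated cells and 156 ± 17.8 TPM with IL-17A (SD, n = 3), without overlap. That difference of 0.32 ± 0.09 had a 95% interval of 0.13 to 0.50 and did not pass the test (limma, unadjusted p = 0.00187). Casp1 differed by -0.12 ± 0.05 when IL-17A was added to IL-33+IL-13, with an interval of -0.22 to -0.02 and overlapping libraries (limma, adjusted p = 0.740). For Il1a the 95% intervals of the 4 IL-17A differences all lay within -0.16 to 0.16, and for Il18 within -0.18 to 0.25. No interaction of IL-13 with IL-17A was called for any of the 6 genes (0 of 13215 called by limma, 372 at an unadjusted p under 0.05, 0 by voom).

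Levels in bulk RNA cannot tell fewer cells of a type from less RNA per cell, so markers of other cells were summed beside these changes. Because TPM is per whole gene span, a gene's part in a sum depends on its span and does not rank genes by abundance. Neutrophil markers, of which 5 of 13 were listed, summed to 161 to 205 TPM without IL-13 and 99.0 to 159 TPM with it, with Camp at 0 in 14 libraries. S100a8, with the highest TPM of them, was at 139 ± 14.8 TPM in untreated cells and 84.1 ± 7.96 TPM with IL-13 (SD, n = 3), while Mmp8 went the other way, at 23.9 ± 1.14 and 63.2 ± 8.91 TPM. Over all 24 libraries S100a8 had 3007 recovered reads and Mmp8 8695. Monocyte markers (5 of 8 listed) summed to 4.80 to 6.97 TPM without IL-13 and 11.5 to 21.9 TPM with it. Fn1 made up most of that sum, at 3.44 to 20.9 TPM, and Ccr2 stayed at 0.685 to 1.61 TPM. Dendritic cell markers (4 of 7) summed to 2.23 to 4.34 TPM without and 1.47 to 4.81 TPM with IL-13, with Xcr1 at 0 in 14 libraries and Ccr7 in 16. Epithelial markers (7 of 11) went from 21.4 to 24.9 TPM to 38.9 to 52.8 TPM, with Krt8 at 0 in 16 libraries. Cdh1 was at 3.54 ± 0.337 TPM in untreated cells and 38.1 ± 0.998 TPM with IL-13, whereas Hopx was at 11.9 ± 0.569 and 7.28 ± 1.096 TPM, Epcam at 2.26 ± 0.229 and 1.09 ± 0.296 TPM, and Scgb1a1 and Foxj1 also had lower means with IL-13. Fibroblast markers (4 of 8) summed to 4.76 to 6.78 TPM without IL-13 and 2.31 to 4.22 TPM with it, without overlap. Most of that sum was Pdgfra, with Col1a1 and Dcn each at 0 in 18 libraries. Lymphocyte markers (3 of 10) summed to 167 to 194 TPM without IL-13 and 140 to 169 TPM with it, nearly all Il7r, with Cd4 at 0.415 TPM at most. The summed alveolar macrophage markers were 13757 to 14753 TPM without IL-13 and 19681 to 22598 TPM with it. Within that list Chil3 was at 382 ± 2.90 TPM in untreated cells and 5167 ± 131 TPM with IL-13, and Ear2 at 687 ± 91.4 and 4191 ± 413 TPM. Siglecf, at 531 ± 4.003 and 303 ± 13.2 TPM, and Cd68, at 9578 ± 257 and 7933 ± 86.0 TPM, lay lower with IL-13. The part of these cells or of the macrophage state in the member changes was not tested.

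The wider pathway was read from lists of ligands, receptors, signalling proteins, sensors, effectors and regulators, whose counts with IL-13 added to untreated cells stand against 29.8% of all tested genes called in either direction. Of 6 listed ligands and antagonists in the tables, 5 were tested, and with IL-13 added to untreated cells 4 were called higher and 1 lower (29.8% of all genes called), with a median log2 difference of 1.01 against -0.03 over all tested genes. Il1a, Il1b, Il1rn and Il18 are among these 5, so the count largely repeats the results above, and the median is the value of Il1a. The fifth was Il1f9, the gene of the skin and lung agonist IL-36 gamma, which went from 2.55 ± 0.289 to 6.21 ± 0.949 TPM (1.02 ± 0.19, limma, adjusted p = 4.21e-04). Like Il1b it was lower once IL-33 was added to IL-13, at 2.69 ± 1.05 TPM (-0.99 ± 0.19, limma, adjusted p = 0.00613), and when IL-33 was added to IL-13+IL-17A, from 5.01 ± 0.610 to 1.73 ± 0.331 TPM (-1.14 ± 0.19, limma, adjusted p = 0.00132). Both Il1f9 calls were lost when only the groups compared were fitted. They rest on few reads, since Il1f9 had 538 over all 24 libraries. Its IL-33 by IL-13 interaction was not called without IL-17A. With IL-17A it was called (-1.17, limma, adjusted p = 0.0383), but the call was lost in 14 of 20 alternatives. Il33 itself, which encodes another member of the family, had 10 reads over all 24 libraries.

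Of 8 listed receptors and binding proteins, 5 were tested, and 4 were called higher and 0 lower with IL-13 (29.8% of all genes called), with a median of 0.51. The fifth, Sigirr, an inhibitory receptor, was at 1.69 ± 0.620 and 1.17 ± 0.0782 TPM and was not called. Il1r1, the signalling receptor for IL-1 alpha and IL-1 beta, rose from 0.523 ± 0.0513 to 2.60 ± 0.171 TPM (1.24 ± 0.11, limma, adjusted p = 2.59e-08). Il1rap, its accessory chain, rose from 1.52 ± 0.151 to 2.59 ± 0.125 TPM, and Il1rl2, the IL-36 receptor, from 13.98 ± 1.45 to 28.9 ± 0.641 TPM, both called and without overlap. Il18bp, which encodes a soluble trap for IL-18, went from 9.10 ± 2.44 to 12.1 ± 1.65 TPM with overlapping libraries (0.40 ± 0.14, limma, adjusted p = 0.0455), a call lost in 9 of 14 alternatives, among them the fits without untreated replicate 1 or 2 or IL-13 replicate 2 or 3, without the 3 libraries apart (0.30) and without the 4 numbered above 24. Il1rl1, the receptor chain specific for IL-33, had 57 reads over all 24 libraries, with group means of 0.0188 to 0.136 TPM, and did not enter the test. With IL-33 added to IL-13 or to IL-13+IL-17A, 0 of the 5 were called, where 2.57% and 3.55% of all tested genes were.

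Of 13 signalling genes tested downstream of the receptor, 0 were higher and 3 lower with IL-13, a share near the 29.8% of all genes, with a median of -0.07. Irak2, a kinase-like adaptor of the receptor complex, fell from 28.4 ± 1.71 to 19.9 ± 0.366 TPM (-0.50 ± 0.05, limma, adjusted p = 3.90e-07). Irak3, an inhibitor of that complex, fell from 5.75 ± 0.502 to 4.13 ± 0.0260 TPM, and Peli1, a ubiquitin ligase, from 6.05 ± 0.348 to 4.58 ± 0.0568 TPM, the last call being lost without untreated replicate 2 or IL-13 replicate 3. The list thus holds an activating and an inhibitory member among those that fell. Myd88, the central adaptor, was at 130 ± 3.09 and 134 ± 6.37 TPM and was not called.

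Of 9 inflammasome sensors tested, Nlrp3 was the 1 called lower with IL-13 and 0 were higher, against 29.8% of all genes called, with a median of -0.05. Aim2, a sensor of cytosolic DNA, went from 4.16 ± 0.191 to 3.59 ± 0.365 TPM (limma, adjusted p = 0.129) and Nlrc4, which acts with bacterial-ligand receptors of the NAIP family, from 9.72 ± 1.37 to 10.9 ± 0.515 TPM (limma, adjusted p = 0.354). Among the adaptor, caspases and pore proteins, 1 of 7 was higher and 1 lower, a share like that of all genes (29.8%), with a median of 0.02. These were Casp8, from 14.3 ± 0.379 to 16.4 ± 0.989 TPM, a call lost when only the groups compared were fitted, and Ninj1, which ruptures the plasma membrane late in lytic death, from 65.4 ± 1.06 to 44.6 ± 0.626 TPM (-0.54 ± 0.07, limma, adjusted p = 2.66e-06). The adaptor Pycard was at 166 ± 1.58 and 168 ± 14.1 TPM and the pore protein Gsdmd at 93.2 ± 4.995 and 93.8 ± 0.746 TPM, neither called, like Casp1.

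Of 15 regulators of the inflammasome tested, 4 were called higher and 1 lower, again a share near the 29.8% of all genes, with a median of -0.03. Serpinb9 and Serpinb1a, both protease inhibitors, rose, the former from 14.6 ± 0.254 to 26.7 ± 0.990 TPM and the latter from 9.27 ± 0.582 to 15.5 ± 1.53 TPM. Tnfaip3, the NF-kB feedback inhibitor A20, rose from 72.8 ± 9.09 to 108 ± 2.73 TPM, and Txnip, a thioredoxin-binding protein, from 331 ± 8.07 to 409 ± 17.1 TPM. Ctsb, a lysosomal protease, fell from 3130 ± 32.8 to 2565 ± 54.3 TPM (-0.29 ± 0.02, limma, adjusted p = 2.29e-08). With IL-33 added to IL-13, Serpinb9 (20.97 ± 0.977 TPM, limma, adjusted p = 0.0165) and Serpinb1a (11.5 ± 0.516 TPM, limma, adjusted p = 0.0191) were lower than with IL-13 alone, and each call was lost in 4 of 6 fits that left out 1 library. For Serpinb9 these were IL-13 replicates 1 and 3 and IL-33+IL-13 replicates 1 and 2, and for Serpinb1a IL-13 replicates 1 and 2 and IL-33+IL-13 replicates 1 and 3. Each was also lost when only the groups compared were fitted. They were 2 of the 15 regulators, where 2.57% of all tested genes were called. With IL-33 added to IL-13+IL-17A, Serpinb9 was lower (-0.39, limma, adjusted p = 0.00444), in all 6 such fits. Txnip was lower there too (-0.28, limma, adjusted p = 0.0131), a call lost in 2 of 6. Both calls were lost in fits of only the groups compared, Txnip also without the 3 libraries apart. In this comparison too 2 of the 15 were called, where 3.55% of all tested genes were. The IL-33 by IL-13 interaction of Serpinb9 was -0.50 without and with IL-17A (limma, adjusted p = 0.0196 and 0.0203). These interaction calls, where 1.17% and 1.51% of all tested genes were called, were lost in 5 and 4 of 12 fits without 1 library. The call with IL-17A was also lost when only the groups compared were fitted, without the 4 libraries numbered above 24 and without the 3 apart.

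**Figure D4:**
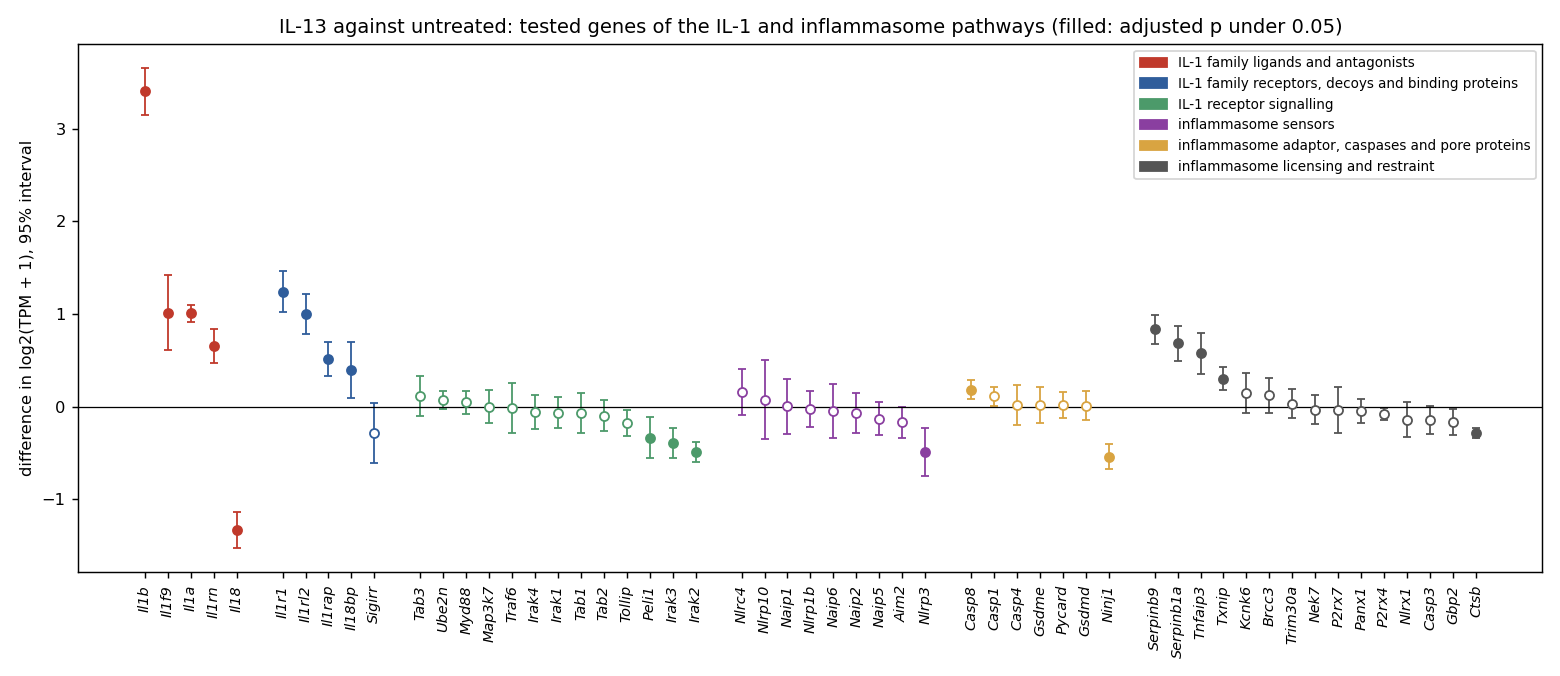
Difference in log2(TPM + 1) between IL-13 and untreated cells for the tested genes of the 6 pathway lists (colours), ordered by size within each list, with 95% intervals from limma and filled points for an adjusted p under 0.05. Il1b stands apart at 3.40 at the left, most points of the signalling, sensor and effector lists lie close to 0, with Irak2, Irak3, Peli1, Nlrp3 and Ninj1 filled at -0.54 to -0.34, and Il18 is the lowest at -1.33.

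Around the chromosome 2 genes, neither of the other tested protein-coding neighbours within 100000 bases was called when IL-13 was added to untreated cells. Slc20a1, a phosphate transporter on the far side of Il1a, was at 74.7 ± 3.07 and 68.7 ± 4.14 TPM (limma, adjusted p = 0.18). Ckap2l, a mitotic spindle gene 2398 bases from Il1a, was too low to be tested but was at 0.0688 ± 0.0322 TPM in untreated cells, 0.677 ± 0.0856 TPM with IL-13 and 0.283 ± 0.0304 TPM with IL-33+IL-13. Psd4, next to Il1rn, was at 24.9 ± 2.29 and 25.5 ± 1.66 TPM and not called, and F830045P16Rik was below 0.02 TPM on average in every group. Il1f5, Il1f10 and Pax8 were not found among the genes listed.

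Across the 24 libraries, which share the split by IL-13, the genes whose log2(TPM + 1) followed each member most closely among 8119 candidates differed between members. For Il1b they were Car2, a carbonic anhydrase (Pearson r = 0.993), and the matrix metalloproteinases Mmp13 (0.991) and Mmp19 (0.990). Mmp13 was at 23.3 ± 4.69 TPM in untreated cells, 502 ± 0.590 TPM with IL-13 and 253 ± 21.4 TPM with IL-33+IL-13, an order of groups like that of Il1b. For Il1a they included F10, the gene of coagulation factor X (0.994), and Ces2c (0.993). For Il1rn the values were lower, with the glucose transporter gene Slc2a1 at 0.934, Psmc5 at 0.907 and Acat2 at 0.902. For Il18 they were Sptssa (0.990), Smim14 (0.989) and Ypel3 (0.987), for Nlrp3 Nfam1 (0.962), Colec12 (0.959) and Trafd1 (0.958), and for Casp1 no gene exceeded Tspo at 0.706, with Cpt2 at 0.689 and H2-M2 at 0.650. These coefficients describe likeness over libraries of 8 groups and carry no test.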

How the data were processed

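Each of the 24 libraries had 1 deposited table of 17017 genes that holds identifiers, coordinates, gene length and TPM. The submitters' processing notes name STAR and mm10; how reads were counted and whether strand was used is not given in the sources used here. In the tables, the authors' TPM values rest on a length that equals the whole gene span for all 17017 genes, per the file headers and coordinates. Reads per gene were recovered from TPM multiplied by span: 89.9% to 91.4% of values of up to 20 reads were whole within 0.05 reads, where chance gives 10%. Exonic lengths came from GENCODE M21 (16998 identifiers matched), and sequences from RefSeq windows on GRCm38.p6. Coordinates are 1-based, with 1 base taken off the deposited ends.

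The design allowed for counts or TPM, and the TPM form was used: limma-trend (limma 3.58.1, R 4.3.3) on log2(TPM + 1), a scale that understates changes of low genes, for the 13215 genes that reached 1 TPM in 3 or more libraries, 8 group means, no covariates and 16 residual degrees of freedom. There were 15 comparisons: 4 additions of each cytokine and 3 interactions. P-values were Benjamini-Hochberg adjusted over the 13215 genes of a comparison. Comparisons that share a group are not independent. Intervals are 95% intervals. Genes named beyond the 6 were up to 4 called genes of each pathway list by smallest p (the others named are receptors, adaptors and effectors chosen after their values were seen), the 3 genes most like each member (1 of them is not reported here), and neighbours within 100000 bases. The members, lists and markers were chosen with earlier results of these data known. Alternatives were a pseudocount of 0.1, other filters (none, or 10 recovered reads in 3 libraries), median-ratio scaling, voom on recovered reads, fitting only the groups compared, and leaving out single libraries or the 4 numbered above 24. Leaving out the 3 libraries apart on the second component, and dividing by the longest coding transcript, were chosen after seeing the data. The fitting code was tested on simulated data.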

Additional observations from a re-analysis of the deposited data

Results flagged for a closer look

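Il1b differed in its response to IL-33 between cells with and without IL-13. The interaction was -1.32 ± 0.17 on the log2(TPM + 1) scale without IL-17A (limma, adjusted p = 2.05e-04), where IL-33 moved mean Il1b from 5.34 to 7.15 TPM without IL-13 and from 66.0 to 33.4 TPM with it. All 3 IL-33 libraries lay above all 3 untreated ones, and all 3 IL-33+IL-13 libraries lay below all 3 IL-13 ones. The same interaction with IL-17A present was -0.93 ± 0.17 (limma, adjusted p = 0.00702), with means of 5.41 and 4.45 TPM without IL-13 and 68.1 and 30.2 TPM with it. That call was lost on recovered reads with voom and without the 4 libraries numbered above 24, as given above.

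Il1rn differed likewise, with an interaction of -0.52 ± 0.12 without IL-17A (limma, adjusted p = 0.0449). Its means were 125 and 148 TPM without IL-13 and 197 and 163 TPM with it. The call for Il1rn rested on a margin that most single libraries decided, as given above.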

How the results depend on the processing

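Of the 25 member differences and interactions called, 21 were called in every alternative run and none changed sign; of the 65 not called, 61 were called in no alternative. No paired analysis was possible because replicate numbers only name the libraries, whose titles carry numbers that are not shared between groups. Median-ratio scaling moved the median of all genes by 0.111 when IL-13 was added to IL-33+IL-17A, where the split of calls went from 1450 higher and 2871 lower to 2273 and 2067. For IL-33 added to IL-13+IL-17A the split went from 152 and 317 to 255 and 327. The depth of 9.13 to 12.9 M reads limits the precision for Nlrp3 and, without IL-13, for Il1b. Causes of the changes below were not tested.

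Ranges without single libraries below span fits that kept the main call and fits that changed it. Called values that lost their call in some of the alternatives were Casp1 with IL-33 added to IL-13+IL-17A (-0.13 with median-ratio scaling and with voom, -0.19 in the groups alone, -0.15 without the 4 libraries numbered above 24, -0.24 to -0.15 without single libraries, lost in 5 of 6) and Il1rn there (-0.38 in the groups alone, -0.45 to -0.32 without single libraries, lost in 4 of 6). The IL-33 by IL-13 interaction of Il1rn without IL-17A was -0.52 with no filter and in the groups alone, -0.45 without the 4, -0.43 without the 3 apart, and -0.57 to -0.43 without single libraries (lost in 10 of 12). That of Il1b with IL-17A was -0.85 with voom and -0.82 without the 4. Values that gained a call were Casp1 with IL-13 added to untreated cells (0.15 without the 3, 0.071 to 0.15 without single libraries, gained in 1 of 6) and to IL-33+IL-17A (-0.15 without the 3, -0.15 to -0.07, gained in 1 of 6), Il1rn in the latter (0.27 scaled, 0.24 with voom) and Nlrp3 with IL-33 added to IL-13+IL-17A (-0.44 without the 4).

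The other sign changes were all in uncalled values of at most 0.146. With IL-13 added to IL-33+IL-17A, Casp1 was 0.0066 scaled. With IL-33 added to IL-17A, Casp1 was 0.042 without the 4, 0.0018 without the 3 and -0.025 to 0.021 without single libraries, and Nlrp3 -0.18 to 0.011. With IL-33 added to untreated cells Nlrp3 was -0.13 to 0.084, and with IL-33 added to IL-13 Casp1 was -0.034 to 0.025. With IL-17A added to untreated cells, Il1b was -0.019 scaled, -0.013 with voom and -0.15 to 0.099, Il18 -0.014 scaled and -0.024 to 0.083, and Nlrp3 -0.013 scaled, -0.0048 with voom, -0.030 without the 3 and -0.083 to 0.088. With IL-17A added to IL-13, Il1a was -0.017 to 0.048, Il1b -0.019 to 0.12, Il18 -0.028 to 0.087 and Nlrp3 -0.011 to 0.092. With IL-17A added to IL-33, Il1rn was 0.097 without the 4 and -0.091 to 0.017, and Nlrp3 -0.18 to 0.045. With IL-17A added to IL-33+IL-13, Il1a was 0.031 scaled and 0.036 with voom, Il1rn 0.016 scaled, 0.022 with voom and -0.075 to 0.016, and Il18 -0.088 without the 3 and -0.088 to 0.14. The IL-33 by IL-13 interaction of Il1a with IL-17A was 0.013 scaled and 0.034 with voom. IL-13 by IL-17A interactions were -0.082 without the 3 and -0.051 to 0.19 for Il1b, -0.053 and -0.055 to 0.075 for Il18, -0.084 to 0.0094 for Il1a, -0.067 to 0.013 for Casp1 and -0.056 to 0.12 for Nlrp3.

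Levels per length moved for Il1rn, Il1b and Il18 with the longest coding transcript in place of all exons, as given with them. Numbers of genes called over all tested genes also moved. Fitting only the groups compared gave 1847 for IL-13 added to IL-33+IL-17A (4321 in the fit of all groups), 3 for IL-33 added to untreated cells (0), 144 for IL-33 added to IL-13 (340), 5 for IL-33 added to IL-17A (1), 49 for IL-33 added to IL-13+IL-17A (469), 5 and 6 for IL-17A added to untreated cells and to IL-33 (0 each) and 65 for the IL-33 by IL-13 interaction with IL-17A (200). Without the 4 libraries the numbers were 2068 for IL-13 added to IL-33+IL-17A, 1 for IL-17A added to IL-33, and 94 and 55 for the IL-33 by IL-13 interactions without (155) and with IL-17A. Without the 3 the last was 116. IL-33 added to IL-17A gave 0 when scaled, with voom and without the 3. Without single libraries the numbers were 212 to 261 for IL-33 added to IL-13, 0 to 1 for IL-33 added to IL-17A, 286 to 666 for IL-33 added to IL-13+IL-17A and 105 to 237 for the interaction with IL-17A.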
